A study of Mus musculus with 18 samples.

Results

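Glucocorticoid signalling was followed through 10 genes in the mouse striatum, 2 of which encode the steroid receptors and 8 of which are known to respond to glucocorticoids or to the stress that releases them. The rule was a list of gene symbols looked up in the deposited expression table, namely Nr3c1, Nr3c2, Fkbp5, Tsc22d3, Sgk1, Xdh, Mt1, Mt2, Cdkn1a and Ddit4, 10 of 29942 names in the table. All 10 had a mean of at least 1 FPKM (sequenced fragments per unit of transcript length and of library size) and were therefore among the 13975 genes tested. From 18 mice of the strain 129Sv/Jae S4, the part of the striatum lying dorsal to the anterior commissure was dissected on both sides, and its polyA RNA was sequenced. Mice were siblings, matched for age and sex and housed in groups. Intraperitoneal D-amphetamine, 7 mg/kg in total per day, or 0.9% saline was given, and tissue was taken on day 1, 7 or 21 from 3 mice of each treatment and day. All 18 mice were thus injected, no uninjected group was analysed here, and the sources used here do not give the time between the last injection and dissection. The series title links the work to repetitive behaviours that the drug induces.

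Corticosterone, the main glucocorticoid of rodents, is released from the adrenal gland by stress and by psychostimulants and enters the brain freely. It binds the glucocorticoid receptor and the mineralocorticoid receptor, which then move to the nucleus and bind palindromic response elements as dimers or act through other transcription factors. In the striatum the glucocorticoid receptor is made by both projection neurons and glia, and several of its target genes are known to be strong in glia and endothelium, so bulk tissue mixes the responses of several cell types. In such tissue fewer cells of a type and less RNA per cell cannot be told apart.

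Promoters are shown for Sgk1, which carries a full response element of the receptors, and for the metallothioneins, which carry metal response elements. RefSeq entries of the build GRCm38.p6 were found for 8 of the 10 members, 16 promoters in all, and the 250 bases before each annotated start were searched on both strands. The expression values were made on another build, mm9, so these coordinates apply to the sequences only. The full glucocorticoid response element, spelled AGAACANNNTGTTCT, was present in 3 of 32851 promoters of the same length (0.00913%), and 1 of the 3 is a promoter of Sgk1 (chr10:21993640-21993889, plus strand). The match starts 189 bases before the start site and is in capitals here, while the other 5 Sgk1 promoters in the table lacked it.
Sgk1: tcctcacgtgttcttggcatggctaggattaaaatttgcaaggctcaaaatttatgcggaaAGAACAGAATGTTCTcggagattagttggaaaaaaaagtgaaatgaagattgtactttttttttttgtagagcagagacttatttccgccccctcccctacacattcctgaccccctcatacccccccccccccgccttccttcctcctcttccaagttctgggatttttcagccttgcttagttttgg
The shorter AGAACA, which is part of the full element, was found in 16.1% of all promoters. The other motif of interest is the metal response element of the metallothioneins, searched as TGCACNC or TGCGCNC and in capitals in the promoters of Mt1 (chr8:94178839-94179088, plus strand) and Mt2 (chr8:94172368-94172617, plus strand).
Mt1: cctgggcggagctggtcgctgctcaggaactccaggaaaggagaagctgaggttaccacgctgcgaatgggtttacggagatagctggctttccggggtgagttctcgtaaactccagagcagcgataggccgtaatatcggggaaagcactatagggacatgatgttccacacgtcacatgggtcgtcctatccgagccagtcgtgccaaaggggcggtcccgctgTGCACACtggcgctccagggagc
Mt2: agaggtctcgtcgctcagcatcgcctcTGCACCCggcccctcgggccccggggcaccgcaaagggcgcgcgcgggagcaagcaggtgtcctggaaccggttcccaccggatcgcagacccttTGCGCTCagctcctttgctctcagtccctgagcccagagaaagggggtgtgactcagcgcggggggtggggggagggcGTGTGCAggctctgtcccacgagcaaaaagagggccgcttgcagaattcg
The Mt1 window held 1 match and the Mt2 window held 3, 1 was also found in promoters of Nr3c2 and Ddit4, and 21.4% of all promoters held at least 1. The AP-1 motif TGANTCA was present once in the Mt2 window and in 6.75% of all promoters. These matches are letters in a window and were not tested for binding.

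Metallothionein transcripts were the most abundant of the group, and the enzyme Xdh the least. Averaged over the 18 libraries, Mt1 stood at 249 FPKM, Mt2 at 92.1, Sgk1 at 77.7, Tsc22d3 at 33.6, Ddit4 at 27.6, Nr3c1 at 23.1, Fkbp5 at 13.9, Nr3c2 at 9.86, Cdkn1a at 6.12 and Xdh at 2.61 FPKM. The glucocorticoid receptor transcript was therefore more abundant per length than that of the mineralocorticoid receptor in this tissue. The receptors varied least between libraries, with the highest library 1.27 times the lowest for Nr3c1 and 1.42 times for Nr3c2. The same ratio was 3.11 for Cdkn1a, 2.98 for Xdh, 2.80 for Tsc22d3 and 2.16 for Sgk1. It was 1.93 for Mt2, 1.79 for Ddit4, 1.68 for Mt1 and 1.45 for Fkbp5. The median over all tested genes with no value of 0 was 1.51, above the ratio of Fkbp5.

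**Figure D1:**
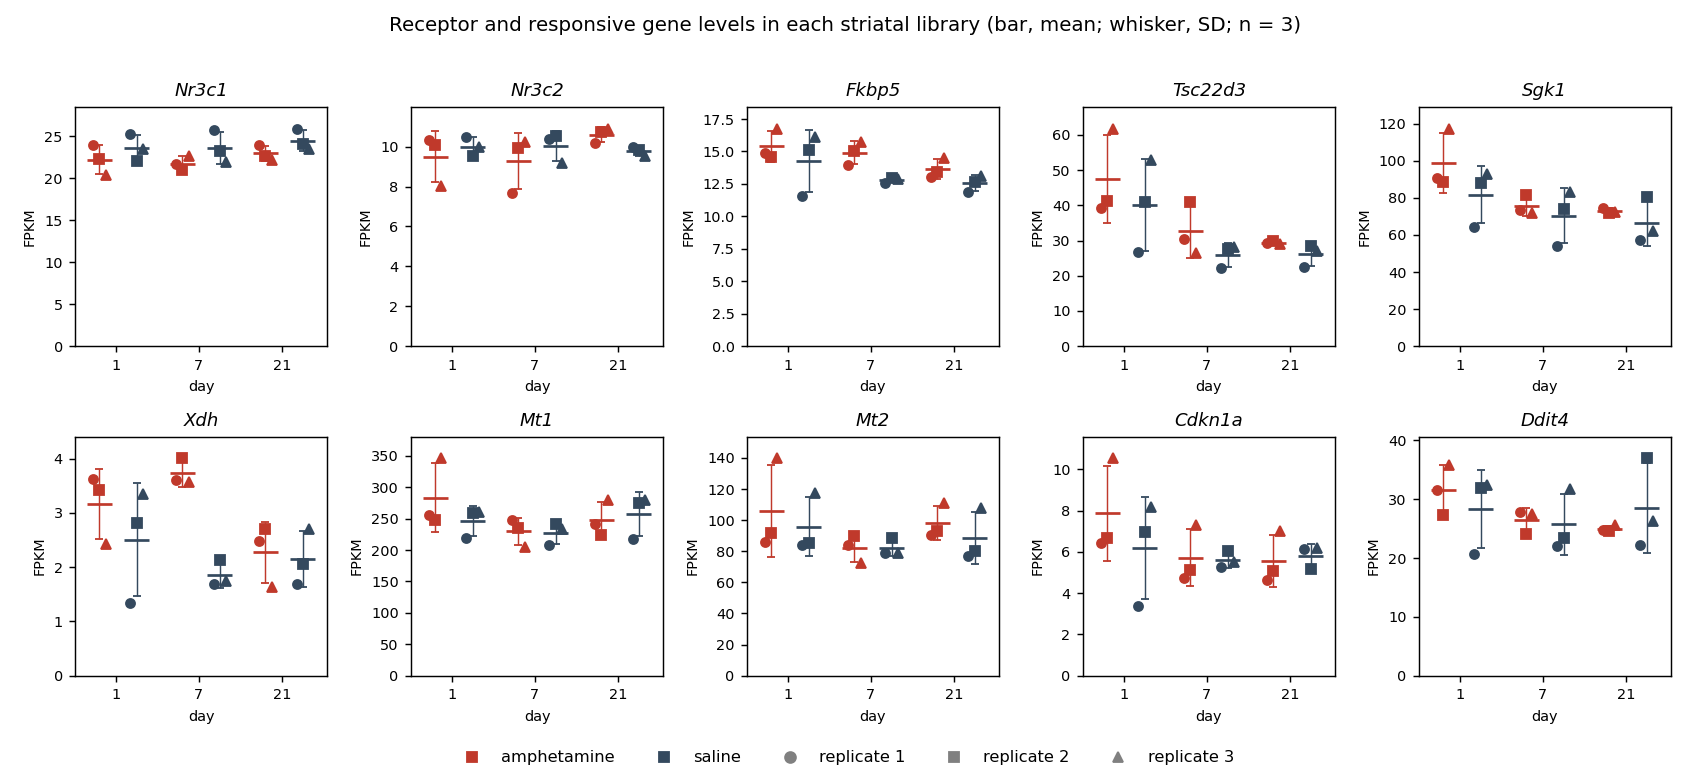
FPKM of the 10 members in each library, with amphetamine left of saline on each day; points are libraries, bars group means and whiskers SD (n = 3). Day 1 amphetamine replicate 3 has the highest point for Fkbp5, Tsc22d3, Sgk1, Mt1, Mt2 and Cdkn1a, and Xdh shows separate amphetamine and saline points on day 7.

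The tissue label fitted its markers: the sum of 12 genes of striatal projection neurons ran from 3984 to 4852 FPKM, and that of 8 genes of cortical glutamatergic neurons from 5.30 to 67.9 FPKM. Absolute depth was unknown. Depth relative to the deepest library was estimated from the size of 1 read in low values and lay between 0.652 and 1. Its group means were 0.811 (amphetamine) and 0.884 (saline) on day 1, 0.822 and 0.894 for day 7, and 0.766 and 0.873 for day 21.

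A few libraries stood apart for this gene group, and results that rest on them are therefore also given without them. Amphetamine replicate 3 of day 1 was the highest of all 18 libraries for 6 of the 8 responsive genes and the lowest for Nr3c1. The mean log2 deviation of the 8 genes was 0.50 in it. The median deviation of all tested genes was 0.058, also the largest of the 18 libraries. The share of all tested genes that were highest or lowest in a given library of the 18 was not counted. The same library was also the highest in the summed markers of astrocytes (862 FPKM over 10 genes) and oligodendrocytes (3100 FPKM over 10 genes). This held as well for ependyma (33.5 FPKM over 7 genes) and for fibroblasts and meninges (182 FPKM over 8 genes). It was narrowly the highest for striatal projection neurons (4852 FPKM, with the next library at 4836 FPKM). Saline replicate 3 of day 1 also stood high, among the highest 3 of 18 for 6 of the 8 responsive genes. Its mean log2 deviation of the 8 genes was 0.32, beside a median of 0.0016 over all tested genes. Its summed oligodendrocyte markers had rank 2 of 18 (2401 FPKM). Saline replicate 1 of day 1 was the lowest of all 18 for Fkbp5, Xdh, Cdkn1a and Ddit4, and also the lowest in the summed markers of endothelium (77.8 FPKM over 10 genes) and striatal projection neurons (3984 FPKM). The part of these marker differences in the results was not tested. Saline replicate 1 differs from the other 5 day 1 libraries in its label number as well, whose meaning is not stated: those 5 carry numbers from 6500 to 6504, a range that holds no library of day 7 or 21, so the range and the day cannot be told apart for them. Saline replicate 1 of day 7 and of day 21 also stood low, among the lowest 3 of 18 for 7 and 6 of the 8 responsive genes. The day 7 library was the lowest of 18 in the summed markers of astrocytes (677 FPKM) and of fibroblasts and meninges (61.1 FPKM). The day 21 library was the highest in those of cortical glutamatergic neurons (67.9 FPKM). Summed oligodendrocyte markers were low in saline replicate 1 of days 1, 7 and 21, at 1397, 1288 and 1546 FPKM. These had ranks 16, 17 and 15 of 18, and amphetamine replicate 3 of day 7 was the lowest (1238 FPKM). The part of these markers in the results was not tested either. The mean log2 deviation of the 8 genes was −0.33, −0.30 and −0.27 in saline replicate 1 of days 1, 7 and 21. Over all tested genes the median deviation there was −0.047, −0.057 and 0.016 in the same order. The same libraries had the 3 highest levels of Nr3c1. All 3 carry numbers from 6377 to 6391, a range that also holds 3 amphetamine libraries and 1 other saline library of days 7 and 21. Day 7 differences within label-number ranges are given beside Nr3c1, Fkbp5, Tsc22d3, Sgk1 and Xdh.

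No member differed between amphetamine and saline past the threshold on any day or averaged over the days. The test was limma on log2(FPKM + 1) in all 18 libraries, with p adjusted by the Benjamini-Hochberg method over all 13975 genes and a threshold of 0.05. The lowest adjusted p of a member from limma was 0.688 for day 1, 0.822 for day 7, 0.878 for day 21 and 0.714 for the average of the days. Few genes passed at all, namely 0.00716% of those tested for day 1, 0.0215% for day 7, 0% for day 21 and 0.122% for the average of the days. At an unadjusted limma p under 0.05 there were 0 members on day 1, where 7.25% of all genes reached that level, and 2 members on day 7 (Fkbp5 and Xdh), where 4.92% did. There were 0 members on day 21, against 5.50% of all genes, and 3 in the mean of days (Nr3c1, Fkbp5 and Xdh), against 5.36%. An exact permutation test, two-sided, in which treatment was reassigned within each day, has 8000 assignments and allows no p below 0.00025. The exact permutation test likewise left 0 members past the threshold after adjustment over all genes, while Fkbp5 (p = 0.013), Nr3c1 (p = 0.023) and Xdh (p = 0.0235) were under 0.05 before it. Their adjusted values were 0.766, 0.859 and 0.86.

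**Figure D2:**
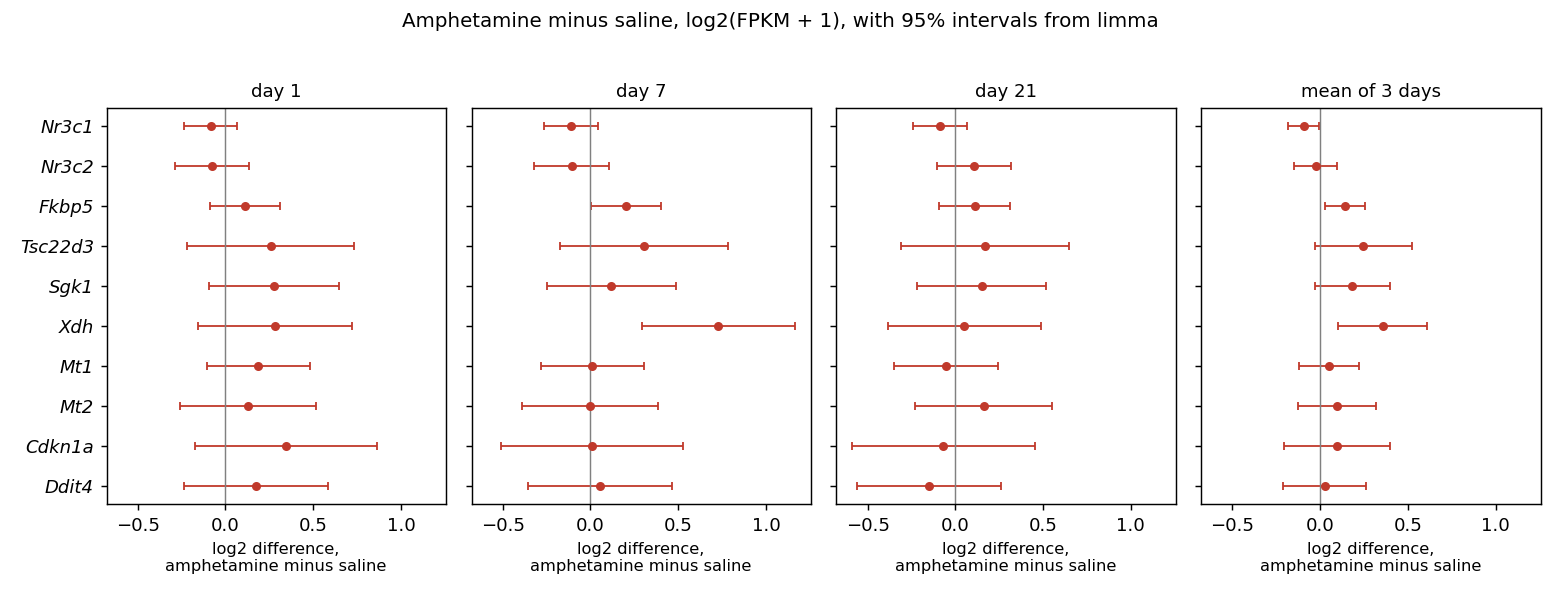
log2 difference, amphetamine minus saline, of each member on each day and in the mean of days; points are limma estimates and bars their 95% confidence intervals, on the log2(FPKM + 1) scale. Intervals that leave out 0 are those of Fkbp5 and Xdh on day 7 and of Nr3c1, Fkbp5 and Xdh in the mean of days, and no member passed after adjustment.

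Nr3c1 encodes the glucocorticoid receptor, which is present in nearly every cell type of the brain. On day 1 it stood at 23.9, 22.2 and 20.4 FPKM in the 3 amphetamine libraries, against 25.2, 22.1 and 23.5 FPKM in the 3 saline libraries. On day 7 it stood at 21.7, 20.9 and 22.6 FPKM with amphetamine, against 25.7, 23.2 and 21.9 FPKM with saline. On day 21 the amphetamine libraries had 24.0, 22.7 and 22.2 FPKM and the saline libraries 25.9, 24.0 and 23.5 FPKM. The groups overlapped on every day, although the amphetamine mean was the lower one each time. The log2 difference was −0.085 for day 1, −0.11 for day 7 and −0.088 for day 21, and 8.53% of all tested genes were likewise below 0 on all 3 days. Averaged over the days it was −0.095 ± 0.041 (SE), with a 95% confidence interval of −0.18 to −0.0067 (limma adjusted p = 0.92). Leaving out any 1 library gave −0.11 to −0.075 in the mean of days, and −0.14 to −0.029 on day 1, −0.16 to −0.052 on day 7 and −0.12 to −0.048 on day 21. The values nearest 0 came without amphetamine replicate 3 of day 1 and without saline replicate 1 of days 7 and 21. Within label-number ranges, the day 7 difference was −0.19 among 4 libraries and 0.041 between 1 library of each treatment.

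Nr3c2 encodes the mineralocorticoid receptor, which binds corticosterone with higher affinity than the glucocorticoid receptor does. It averaged 9.49 ± 1.28 FPKM in amphetamine and 10.0 ± 0.485 FPKM in saline mice on day 1, and 9.29 ± 1.39 and 10.0 ± 0.742 FPKM for day 7 (SD, n = 3 each). On day 21 it had 10.2, 10.7 and 10.9 FPKM with amphetamine, against 9.96, 9.84 and 9.51 FPKM with saline. Every amphetamine library of that day was thus above every saline library, as for 4.76% of all tested genes, by a log2 difference of 0.11 (limma adjusted p = 0.884). Averaged over the days the difference was −0.025 ± 0.057 (SE), with a 95% confidence interval of −0.15 to 0.097.

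Fkbp5 encodes a co-chaperone that is induced by the glucocorticoid receptor and lowers the receptor's affinity for hormone, a short feedback loop. On day 1 it had 14.9, 14.6 and 16.8 FPKM in the amphetamine libraries, against 11.6, 15.1 and 16.1 FPKM in the saline libraries. On day 7 it had 13.99, 15.02 and 15.7 FPKM with amphetamine, against 12.6, 12.9 and 12.9 FPKM with saline. On day 21 it had 13.01, 13.4 and 14.5 FPKM with amphetamine, against 11.9, 12.7 and 13.1 FPKM with saline. Day 7 was the single day on which the groups did not overlap, with all 3 amphetamine libraries on top. Such a separation was seen for 5.45% of all tested genes on day 7, and Fkbp5 and Xdh were the 2 members that had it. On day 1 no member had it, against 7.73% of all genes, and no member had all amphetamine libraries below all saline ones, against 2.91% of all genes on day 1, 4.86% on day 7 and 7.51% on day 21. The log2 difference of Fkbp5 was 0.11 for day 1, 0.20 ± 0.094 (SE) for day 7 (limma adjusted p = 1) and 0.11 for day 21. Averaged over the days it was 0.14 ± 0.054 (SE), with a 95% confidence interval of 0.026 to 0.26 (limma adjusted p = 0.844). Without saline replicate 1 of day 1 the day 1 difference was −0.022 and the mean of days 0.097, and without amphetamine replicate 3 of day 1 the day 1 difference was 0.054. Within label-number ranges, the day 7 difference was 0.17 among 4 libraries and 0.27 between 1 library of each treatment.

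Tsc22d3 encodes GILZ, a leucine zipper protein that glucocorticoids induce and that restrains inflammatory transcription factors. On day 1 its values were 39.3, 41.3 and 61.8 FPKM with amphetamine, against 26.8, 40.9 and 52.9 FPKM with saline. On day 7 they were 30.4, 41.0 and 26.4 FPKM with amphetamine, against 22.1, 27.6 and 28.0 FPKM with saline. On day 21 they were 29.2, 29.8 and 28.9 FPKM with amphetamine, against 22.4, 28.5 and 27.1 FPKM with saline. The groups overlapped on days 1 and 7 and did not on day 21, when the lowest amphetamine library lay just above the highest saline one, so that Tsc22d3 and Nr3c2 were the 2 members with separate groups on that day. Spread was wide on day 1, at 47.5 ± 12.4 FPKM with amphetamine and 40.2 ± 13.05 FPKM with saline (SD, n = 3 each). The log2 difference was 0.26, 0.31 and 0.17 on days 1, 7 and 21, and 0.24 ± 0.13 (SE) in the mean of days (limma adjusted p = 0.985). Without saline replicate 1 of day 1 the day 1 difference was 0.00032, and without amphetamine replicate 3 of that day it was 0.057. Leaving out 1 library gave 0.13 to 0.44 on day 7, with the lowest value without amphetamine replicate 2, and 0.071 to 0.24 on day 21, with the lowest without saline replicate 1. For the mean of days it gave 0.16 to 0.32, and relative depth as a covariate gave 0.072. Within label-number ranges, the day 7 difference was 0.50 among 4 libraries and −0.082 between 1 library of each treatment.

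Sgk1 encodes a kinase that is induced by both steroid receptors and regulates ion channels, transporters and FOXO factors, and one of its promoters carries the full response element printed above. On day 1 it had 90.5, 88.8 and 117 FPKM in the amphetamine libraries, against 64.1, 88.1 and 93.1 FPKM in the saline libraries. On day 7 it had 73.3, 81.5 and 71.7 FPKM with amphetamine, against 54.2, 74.0 and 83.1 FPKM with saline. On day 21 it had 74.7, 72.0 and 72.6 FPKM with amphetamine, against 57.1, 80.4 and 62.1 FPKM with saline. Saline libraries lay on both sides of the amphetamine ones on days 7 and 21. The log2 difference was 0.28, 0.12 and 0.15 on days 1, 7 and 21, and 0.18 ± 0.099 (SE) in the mean of days (limma adjusted p = 0.985). Without saline replicate 1 of day 1 the day 1 difference was 0.11, and without amphetamine replicate 3 of that day it was 0.15. Without saline replicate 1 of day 7 the day 7 difference was −0.055, and without saline replicate 1 of day 21 the day 21 difference was 0.049. Leaving out 1 library gave 0.12 to 0.23 for the mean of days, and relative depth as a covariate gave 0.047. Within label-number ranges, the day 7 difference was 0.28 among 4 libraries and −0.21 between 1 library of each treatment.

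Xdh encodes xanthine dehydrogenase, the oxidoreductase that makes uric acid in the last steps of purine breakdown, and is known from the endothelium of brain vessels. On day 1 it had 3.63, 3.42 and 2.43 FPKM with amphetamine, against 1.34, 2.81 and 3.36 FPKM with saline. On day 7 it had 3.62, 4.01 and 3.57 FPKM with amphetamine, against 1.69, 2.13 and 1.75 FPKM with saline. On day 21 it had 2.49, 2.70 and 1.64 FPKM with amphetamine, against 1.69, 2.07 and 2.71 FPKM with saline. The separation was wide on day 7, where the lowest amphetamine library was well above the highest saline library, and the groups overlapped on days 1 and 21. The day 7 difference was 0.73 ± 0.20 (SE) on the log2(FPKM + 1) scale, which understates the change of a gene at this level, with a 95% confidence interval of 0.29 to 1.17. By p it had rank 44 among the 13975 genes of that day and did not pass (unadjusted p = 0.00298 from limma, limma adjusted p = 0.822). It was 0.73 within each of the 2 label-number ranges of that day, and 0.69 to 0.80 with any 1 library left out. On day 1 the difference was 0.28, or 0.018 without saline replicate 1 and 0.42 without amphetamine replicate 3, and on day 21 it was 0.052. The dependence of the treatment difference on day was tested as an interaction in limma and did not pass for Xdh (unadjusted p = 0.0913, limma adjusted p = 0.773). At an unadjusted p under 0.05 in that test there were 0 members, against 6.25% of all genes, and 0% of all genes passed after adjustment. The mean of days difference of Xdh was 0.36 ± 0.12 (SE), 95% confidence interval 0.10 to 0.61 (limma adjusted p = 0.714).

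The summed markers of endothelium, the cell type in which Xdh is best known in brain, overlapped between the treatments on day 7: 10 genes summed to between 96.5 and 105 FPKM with amphetamine, and between 79.6 and 123 FPKM with saline. On day 1 the same sum lay between 95.6 and 114 FPKM with amphetamine and between 77.8 and 112 FPKM with saline. Choroid plexus markers, 7 genes, summed to between 68.6 and 153 FPKM in amphetamine libraries and to between 50.1 and 55.0 FPKM in saline libraries on day 1, so that these groups did not overlap. Their part in the day 1 values of the members was not tested.

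Mt1 and Mt2 encode metallothioneins, small cysteine-rich proteins that bind zinc and copper, are strongest in astrocytes and respond to metals, oxidants and glucocorticoids. Mt1 averaged 283 ± 54.5 FPKM in amphetamine and 246 ± 23.9 FPKM in saline mice on day 1, 229.5 ± 21.8 and 227 ± 16.96 FPKM for day 7, and 248 ± 28.5 and 258 ± 34.8 FPKM for day 21 (SD, n = 3 each). Mt2 had 86.0, 91.9 and 139.8 FPKM in the amphetamine libraries of day 1, against 83.9, 85.6 and 117.6 FPKM in the saline libraries. Its averages were 82.2 ± 9.09 with amphetamine and 82.1 ± 5.38 FPKM with saline for day 7, and 98.2 ± 11.2 and 88.4 ± 16.7 FPKM for day 21. The treatment groups of both genes overlapped on every day. Mt1 and Mt2 are close paralogues, and how the authors' counting split any reads shared between them is not given in the sources used here, so their separate levels are uncertain. On day 1 the amphetamine mean leaned on replicate 3, which was the highest of all 18 libraries for both, at 346 FPKM for Mt1. Without that library the day 1 log2 difference was 0.036 for Mt1 and −0.087 for Mt2, against 0.19 and 0.13 with it. Averaged over the days, the differences of Mt1 and Mt2 were 0.049 ± 0.079 and 0.096 ± 0.10 (SE), with 95% confidence intervals of −0.12 to 0.22 and −0.13 to 0.32.

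Cdkn1a encodes p21, a cyclin-dependent kinase inhibitor that p53 and the glucocorticoid receptor can induce, and Ddit4 encodes REDD1, an inhibitor of mTORC1 that stress, low oxygen and glucocorticoids induce. Cdkn1a had 6.42, 6.67 and 10.5 FPKM in the amphetamine libraries of day 1, against 3.39, 6.97 and 8.15 FPKM in the saline libraries. Its other libraries, of days 7 and 21, lay between 4.63 and 7.31 FPKM in the amphetamine groups and between 5.16 and 6.16 FPKM in the saline groups. Day 1 thus held both the highest and the lowest library of this gene, and the groups overlapped on every day. The log2 difference of Cdkn1a was 0.34 ± 0.24 (SE) on day 1 and 0.025 without saline replicate 1 or 0.14 without amphetamine replicate 3, and its 95% confidence interval in the mean of days was −0.21 to 0.40. Ddit4 averaged 31.6 ± 4.32 FPKM with amphetamine and 28.3 ± 6.66 FPKM with saline on day 1, 26.5 ± 2.03 and 25.7 ± 5.24 FPKM for day 7, and 24.97 ± 0.511 and 28.5 ± 7.62 FPKM for day 21. Saline replicate 2 of day 21, at 37.0 FPKM, was the highest Ddit4 library of all 18. The mean of days difference was 0.025 ± 0.11 (SE), 95% confidence interval −0.21 to 0.26.

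Counted by sign alone, 8 of 10 members had a higher amphetamine mean on the log2 scale on day 1, against 64.0% of all tested genes, 7 on day 7, against 51.5%, and 6 on day 21, against 42.7%. For the mean of days it was 8 of 10, against 55.6%, and the 2 exceptions were the receptors. The median difference of the members was 0.18, 0.034 and 0.080 on days 1, 7 and 21, and the median of all tested genes 0.047, 0.0036 and −0.020. Without saline replicate 1 of day 1, the day 1 count was 6 of 10 with a median of 0.0090, and the mean of days count was 6 of 10 with a median of 0.045, against 0.095 with that library. Without amphetamine replicate 3 of day 1 the counts were 8 and 7 of 10, with medians of 0.055 and 0.025. Without saline replicate 3 of day 1 both counts were 8 of 10, with larger medians of 0.28 and 0.16. Saline replicate 1 was the lowest of the 6 libraries of that day for 32.6% of all tested genes. Fkbp5, Tsc22d3, Sgk1 and Xdh were above 0 on each of the 3 days, as were 13.1% of all genes, and with relative depth as a covariate the day 21 differences of Tsc22d3, Sgk1 and Xdh turned to −0.050, −0.022 and −0.013. Between the 2 label-number ranges of day 7 the sign of the difference was the same for Fkbp5 and Xdh and opposite for the other 8 members. One range held 2 libraries of each treatment and the other only 1 of each, and the share of all tested genes with the same sign was not counted.

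Differences between days were also examined within each treatment, and no member passed that test either, Tsc22d3 having the lowest p. Over days 1, 7 and 21, Tsc22d3 averaged 47.5, 32.6 and 29.3 FPKM in amphetamine mice, and 40.2, 25.9 and 26.0 FPKM in saline mice. Its day 7 minus day 1 difference was −0.52 with amphetamine and −0.57 with saline, and its day 21 minus day 1 difference was −0.65 with amphetamine and −0.56 with saline (±0.22 SE each). The test over the 3 days gave an unadjusted limma p of 0.0259 with amphetamine and 0.0346 with saline, and a limma adjusted p of 0.409 and 0.804 in the same order. Tsc22d3 was the 1 member at an unadjusted p under 0.05 in each treatment, where 11.2% of all genes were at that level with amphetamine and 5.95% with saline, while 0% and 0.00716% passed after adjustment. Sgk1 averaged 98.9, 75.5 and 73.1 FPKM over days 1, 7 and 21 in amphetamine mice, and 81.8, 70.4 and 66.5 FPKM in saline mice. All 3 amphetamine libraries of day 1 were above all 6 of days 7 and 21 for Sgk1, as for 3.04% of tested genes. Apart from saline replicate 1, all day 1 libraries were above all 12 libraries of the later days for Sgk1. This pattern, noticed after the values were seen, held for 0.107% of tested genes. These 5 day 1 libraries carry label numbers from 6500 to 6504, which no later library carries, so day and range cannot be told apart for them. Saline replicate 1 of day 1 lies outside that range. It had 26.8 FPKM of Tsc22d3, against 22.1 to 28.5 FPKM in the saline libraries of days 7 and 21. Xdh with amphetamine averaged 3.16, 3.73 and 2.28 FPKM over days 1, 7 and 21, and its day 21 minus day 7 difference was −0.54 ± 0.20 (SE; limma adjusted p = 0.404).

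**Figure D3:**
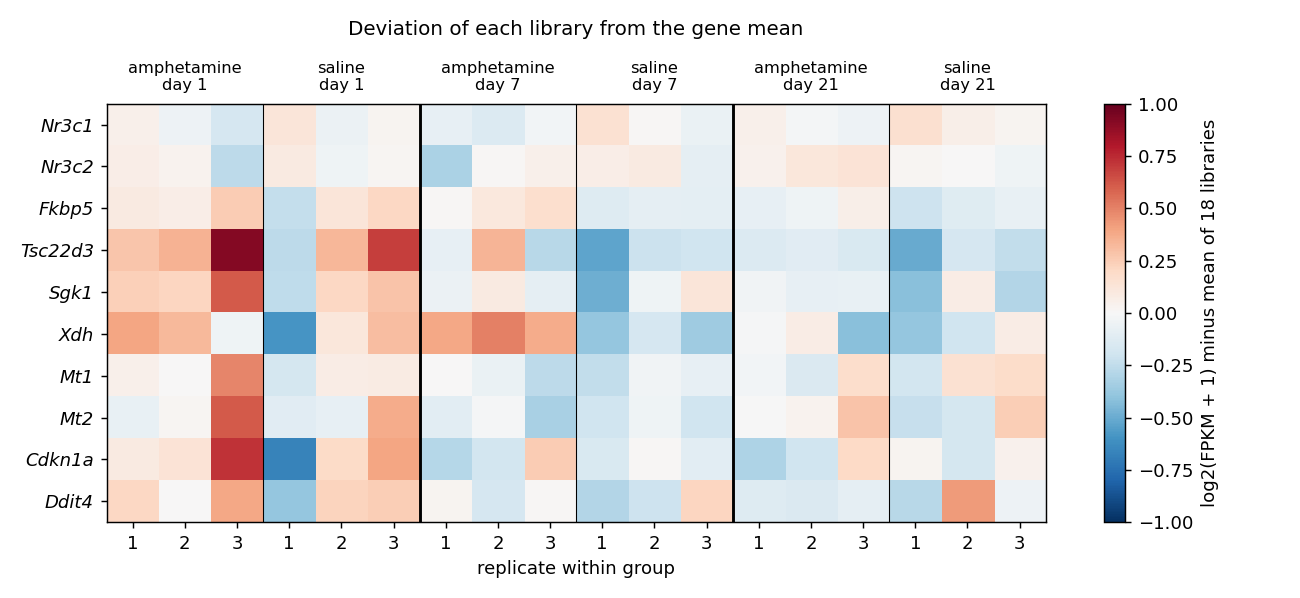
log2(FPKM + 1) of each member in each of the 18 libraries, as a deviation from the member's mean over the libraries; columns are libraries by day with amphetamine left of saline, and colour runs from below to above the mean. Saline replicate 1 of day 1 is below the mean for all 8 responsive genes, by 0.33 on average, and amphetamine replicate 3 of day 1 is above it by 0.50 on average.

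Across libraries, the levels of the responsive genes correlated positively with each other and negatively with that of Nr3c1. All 28 pairs among the 8 responsive genes had a positive Pearson r over the 18 libraries, from 0.10 to 0.91 with a median of 0.59. Not all were close among the 13975 tested genes: by r with Xdh, Mt1 had rank 5495 and Mt2 rank 5560, while Sgk1 had rank 7 by r with Tsc22d3. The share of positive pairs among all tested genes was not counted. Tsc22d3 and Sgk1 were the closest pair at 0.91, and r was 0.84 with group means removed and 0.86 without amphetamine replicate 3 of day 1. Fkbp5 and Tsc22d3 had 0.81, Mt1 and Mt2 0.81, Sgk1 and Ddit4 0.78, and Fkbp5 and Cdkn1a 0.77. Without amphetamine replicate 3 of day 1 the 28 pairs ran from 0.079 to 0.86, and with group means removed from 0.065 to 0.92. Nr3c1 had a negative r with each of the 8 responsive genes, from −0.70 to −0.44 over 18 libraries, from −0.63 to −0.21 without that library and from −0.78 to −0.18 with group means removed. For Nr3c2 the negative sign rested in part on that 1 library: r was −0.47 to −0.24 over 18 libraries, and without it −0.33 to 0.16, with Mt2 at 0.16 and Cdkn1a at 0.12. With group means removed, Nr3c2 had 0.083 with Xdh and a negative r with the other 7. These coefficients are descriptions: all points come from the same 18 libraries and share depth, dissection and the 6 groups.

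**Figure D4:**
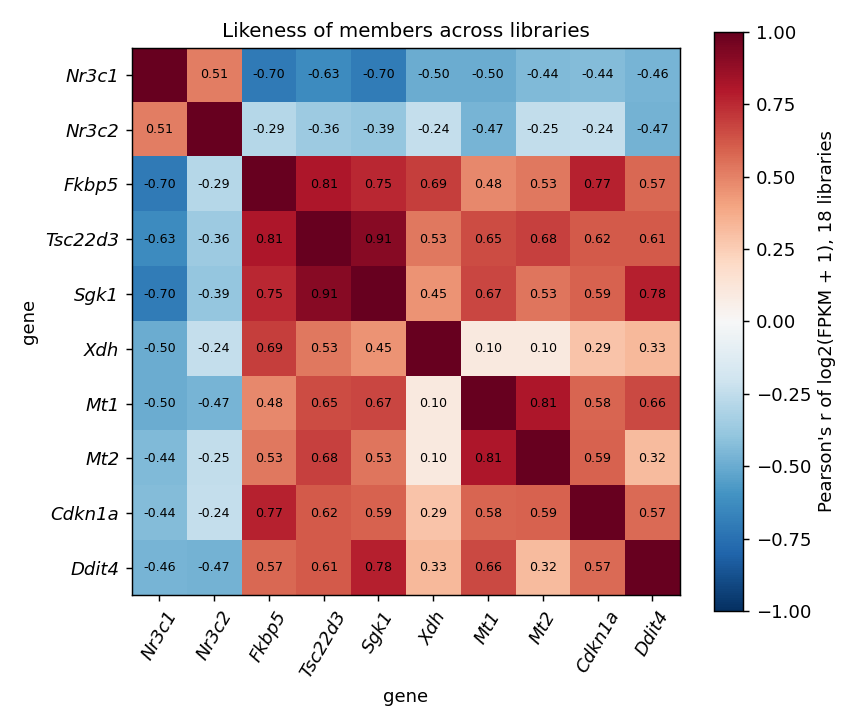
Pearson r between each pair of members over 18 libraries, on the log2(FPKM + 1) scale. The block of 8 responsive genes is positive throughout, with Tsc22d3 and Sgk1 at 0.91, and the rows of Nr3c1 and Nr3c2 are negative against it over these 18 libraries, for Nr3c2 with Mt2 and Cdkn1a not without amphetamine replicate 3 of day 1.

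Named by the highest r over the same 18 libraries among all tested genes, the transcript most like Tsc22d3 was Sdc4, a cell surface proteoglycan gene, at 0.94, followed by Mettl7a1 and by Pdk4, a kinase gene that restrains pyruvate use, both at 0.92. Sgk1 was most like Gpt2 at 0.93, Lfng, a modifier of Notch, at 0.92 and Nfkbia, the inhibitor of NF-κB, at 0.91. Fkbp5 was most like Ccdc6 at 0.88, the stress transcription factor gene Xbp1 at 0.86 and the kinase gene Plk3 at 0.84. Mt1 was most like Gstm1 at 0.90, a glutathione transferase gene, and Mt2 most like Rcan2 at 0.85. Ddit4 was most like Glrx5 at 0.89, Cdkn1a like Mapre2 at 0.85, and Xdh like Kpna6 at 0.80. Among the receptors, Nr3c1 was most like Lrrtm2, a synaptic adhesion gene, at 0.85, and Nr3c2 like Opa1, a gene of mitochondrial fusion, at 0.83.

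Beyond the 10 members, 136 genes in 9 lists around the pathway were read, of which 113 were tested, and 1 of them passed in the mean of days, where 0.122% of all genes did. That gene was Dusp1, a phosphatase gene that glucocorticoids induce and that is also an immediate-early gene of neuronal activity. Dusp1 averaged 33.1 ± 11.6 FPKM with amphetamine and 12.7 ± 0.779 FPKM with saline on day 1, 28.9 ± 4.88 and 12.7 ± 1.45 FPKM for day 7, and 29.7 ± 6.33 and 13.6 ± 2.65 FPKM for day 21 (SD, n = 3 each). It rose by 1.15 on the log2 scale in the mean of days (limma adjusted p = 0.000478), and the limma call held in all alternatives run. In the exact permutation test Dusp1 had the smallest p possible (p = 0.00025), which did not pass after adjustment over all genes (adjusted p = 0.175). Dusp1 belongs to the list of other glucocorticoid-induced genes, 25 of 30 of which were tested. Of these 25, 1 rose, none fell, and 24 had a difference above 0 in the mean of days, against 55.6% of all tested genes, with a median of 0.15 beside 0.0080 for all. The count above 0 was 22 for day 1, against 64.0% of all tested genes, 22 for day 7, against 51.5%, and 19 for day 21, against 42.7%. The medians of the list were 0.19, 0.14 and 0.074 on days 1, 7 and 21, beside 0.047, 0.0036 and −0.020 for all tested genes. The list was chosen with earlier results of these data known, so its counts and medians are descriptions and not independent evidence.

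Without amphetamine replicate 3 of day 1, 22 of the 25 were above 0 in the mean of days, with a median of 0.10, and without saline replicate 1 of that day 21 were, with a median of 0.12, where 52.9% and 52.5% of all tested genes were above 0. The day 1 count without saline replicate 1 was 17, with a median of 0.039, against 60.5% of all tested genes and a median of 0.030. Without amphetamine replicate 3 it was 19, with a median of 0.10, against 61.2% and 0.031. Without saline replicate 3 of day 1 it was 24, with a median of 0.32, against 63.5% and 0.051. That omission left 24 above 0 in the mean of days, with a median of 0.18, against 56.8% of all tested genes. Per1, a clock gene with glucocorticoid response elements, averaged 26.7 ± 4.77 FPKM with amphetamine and 22.6 ± 3.35 FPKM with saline on day 1, 29.8 ± 2.67 and 22.0 ± 2.75 FPKM for day 7, and 23.2 ± 2.25 and 21.5 ± 0.684 FPKM for day 21. Its mean of days difference was 0.25 (limma adjusted p = 0.568). Plin4, which coats lipid droplets, averaged 3.52 ± 1.42 FPKM with amphetamine and 2.36 ± 1.00 FPKM with saline on day 1, 2.11 ± 0.938 and 0.642 ± 0.137 FPKM for day 7, and 1.25 ± 0.688 and 0.793 ± 0.204 FPKM for day 21. Plin4 differed by 0.53 in the mean of days (limma adjusted p = 0.707), and in both treatments its level was highest on day 1, as for Tsc22d3.

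**Figure D5:**
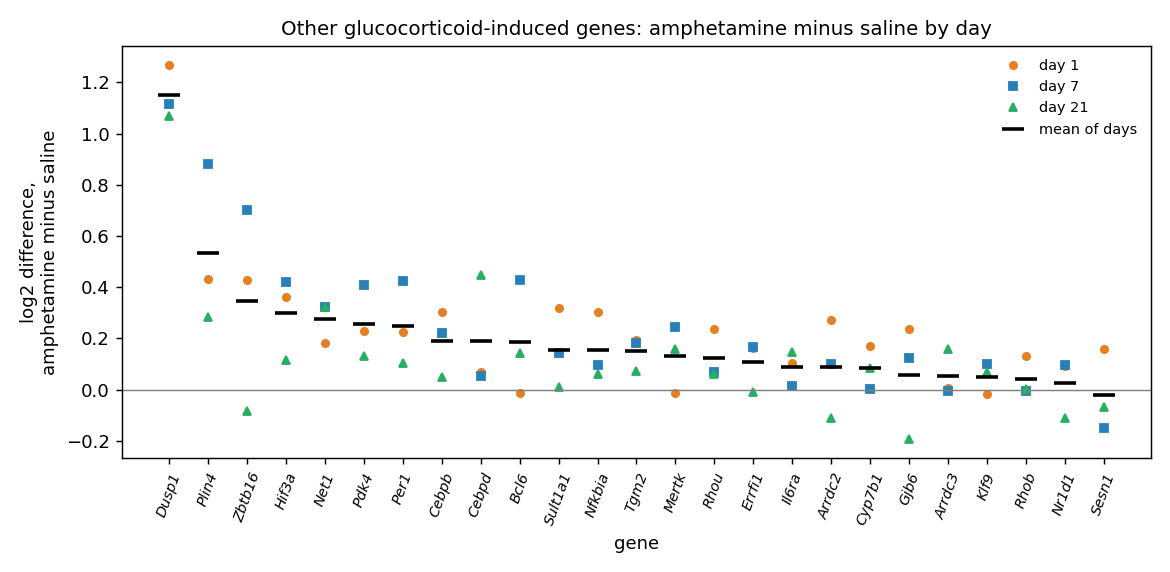
log2 difference, amphetamine minus saline, of 25 other glucocorticoid-induced genes (x axis) on the log2(FPKM + 1) scale (y axis); symbols are days 1, 7 and 21 and black bars the mean of days. Dusp1 stands above the rest at 1.15 in the mean of days, and 24 of the 25 are above 0 there, against 55.6% of all tested genes. The list was chosen with earlier results of these data known.

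In the other lists no gene passed in the mean of days. The 13 tested genes of receptor handling, such as chaperones and steroid enzymes, had a median difference of 0.015, and the 12 coregulators 0.0014. Among chaperones, Fkbp4, the counterpart of Fkbp5 that favours receptor transport, differed by 0.057. Of the corticotropin-releasing hormone system 4 of 9 genes were tested, and the precursor gene Pomc had the largest difference there, 0.41 (limma adjusted p = 0.976). The 9 relatives and substrates of SGK1 had a median of 0.0046, with the related kinase gene Sgk3 at 0.19, and the 10 genes of metal handling had −0.0053. The zinc importer gene Slc39a10 stood at −0.090 and the exporter gene Slc30a1, a target of the metal response factor, at 0.051. Among 17 relatives of Cdkn1a and p53, with a median of 0.054, Gadd45g, a growth arrest gene, had 0.58 (limma adjusted p = 0.329) and the kinase inhibitor gene Cdkn2c 0.28. The 14 genes around mTORC1 had −0.0072, with the inhibitor gene Deptor at −0.25 (limma adjusted p = 0.865), and the 9 genes of purine breakdown and the molybdenum cofactor that xanthine dehydrogenase needs had 0.040, with Mocs1 at 0.16. At an unadjusted limma p under 0.05 in the mean of days, which 5.36% of all tested genes reached, there were 6 of the 25 other glucocorticoid-induced genes, 0 genes of receptor handling, the coregulators and the hormone system, 2 of the SGK1 list, 1 each of metal handling, mTORC1 and purine breakdown, and 4 of the p53 list.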

How the data were processed

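Per the labels, striatal polyA RNA of 18 mice was sequenced, 3 per treatment and day. The authors deposited 1 table of FPKM, fragments scaled to transcript length and library size, with 0 columns of other samples. The submitters' processing notes name Bowtie and the build mm9. The sources used here do not give versions, the quantifying program, the annotation or strand handling, so antisense and overlapping genes cannot be told apart. FPKM are not counts, and no count model was run. log2(FPKM + 1) of 13975 genes with a mean of at least 1 FPKM was fitted with limma (version 3.58.1, R version 4.3.3), with 1 mean per group, all 18 libraries and moderation along the trend with mean level (12 residual and 2.26 prior degrees of freedom). p values were two-sided and adjusted over all tested genes by the Benjamini-Hochberg method. Comparisons were amphetamine against saline for each day and averaged over days, the interaction, and day within each treatment. With 3 animals against 3, an exact permutation of 1 value cannot go below p = 0.1. The fit was tested on simulated data.

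The members and the lists of related genes were chosen with earlier results of these data known. Members were named in full, up to 3 genes of each related list by lowest p in the mean of days with any past the threshold, and for each member the 3 tested genes of highest Pearson r. Absolute depth was unknown. Promoters were RefSeq entries of GRCm38.p6. Alternatives were another pseudocount, other filters, scalings and weightings, the replicate number as a block, label-number ranges, fits to 1 day and leaving out each library. Relative depth as a covariate, and alternatives for the list of other glucocorticoid-induced genes, were chosen after seeing the data. Figures were drawn with matplotlib (version 3.10.9).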

Additional observations from a re-analysis of the deposited data

How the results depend on the processing

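No member passed the threshold under any of the 33 alternatives, in any contrast they gave. Of 1196 member values under alternatives, 52 took the other sign, none past the threshold and none above 0.153 in size, and the causes were not tested. Xdh was not tested where the filter asked for a mean of 5 FPKM. Its day 7 difference ran from 0.68 to 0.97 over the alternatives, with a lowest limma adjusted p of 0.171.

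Whether the replicate numbers pair the samples is not stated, and the main fit treated the samples as unpaired. Some samples of the same day and number have neighbouring label numbers, such as 6485 and 6486 for replicate 3 of day 21. Of the correlations between samples of the same number, 3 of 9 were over 0.1 (−0.085 to 0.14). Those of different numbers ran from −0.14 to 0.13, and correlations this weak cannot decide on pairing. With the replicate block, the genes that passed numbered 0 for day 7, 8 for the mean and 0 over days in saline, against 3, 17 and 1 without it. With a block within day they numbered 0 for day 1, 0 for day 7, 5 for the mean and 0 over days in saline.

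With array weights the day 1 differences were −0.0059 for Fkbp5, −0.082 for Tsc22d3 and −0.15 for Mt2, the day 7 one −0.066 for Cdkn1a, and the mean of days −0.015 for Mt1, −0.051 for Mt2 and −0.073 for Cdkn1a. With label-number ranges they were −0.022 for Fkbp5 and −0.033 for Ddit4 on day 1, and −0.012 for Cdkn1a and −0.043 for Ddit4 in the mean. Quantile normalization gave 0.0060 for Mt2 and −0.019 for Cdkn1a on day 7. With depth as a covariate, the values were −0.062 for Mt1, −0.050 for Cdkn1a and −0.045 for Ddit4 on day 7, −0.050 for Tsc22d3, −0.022 for Sgk1 and −0.013 for Xdh on day 21, and −0.037 for Mt1 and −0.091 for Ddit4 in the mean.

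Among all tested genes, 1, 3 and 0 passed on days 1, 7 and 21, 17 in the mean, 0 in the interaction, and 1 and 0 over days in saline and amphetamine. A filter of 5 FPKM gave 3, 5 and 4 on days 1, 7 and 21 and 0 over days in saline. Array weights gave 4, 6 and 5, then 28 in the mean and 3 and 2 over days in saline and amphetamine. Fits to 1 day gave 3, 9 and 6. Robust moderation gave 2 on day 1, and quantile normalization 3 on day 21 and 0 over days in saline, and no filter 0 over days in saline. Label-number ranges gave 4 on day 1, 11 in the mean, 2 in the interaction and 15 over days in each treatment. Depth as a covariate gave 9 in the mean and 0 over days in saline, and the exact permutation gave 0 in the mean.

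Leaving out 1 library gave 1 to 8 genes on day 1, 0 to 10 on day 7, 0 to 6 on day 21, 8 to 17 in the mean, and 0 to 2 in the interaction and over days in either treatment. The median of the other glucocorticoid-induced genes ran from 0.10 to 0.18. On day 1, the values of members whose sign turned ran from −0.14 to 0.030 for Nr3c2, −0.022 to 0.20 for Fkbp5, −0.087 to 0.28 for Mt2 and −0.033 to 0.28 for Ddit4. On day 7 they ran from −0.18 to 0.0099 for Nr3c2, −0.055 to 0.25 for Sgk1, −0.049 to 0.089 for Mt1, −0.070 to 0.087 for Mt2, −0.15 to 0.11 for Cdkn1a and −0.044 to 0.21 for Ddit4. On day 21 they ran from −0.056 to 0.20 for Xdh, −0.17 to 0.020 for Mt1, −0.22 to 0.033 for Cdkn1a and −0.31 to 0.046 for Ddit4. Averaged over the days they ran from −0.048 to 0.014 for Nr3c2, −0.0014 to 0.079 for Mt1, −0.012 to 0.16 for Cdkn1a and −0.043 to 0.091 for Ddit4. Depth in reads was unknown, so no counting error is given for low genes such as Xdh.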
